A study of Mus musculus with 24 samples.

Results

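The cytokine IL27 was added to mouse CD8+ T cells that were also cultured with dexamethasone, and their RNA was compared with that of cells given dexamethasone alone. The comparison takes 6 of the 24 libraries of the study: the 3 labelled as having received both agents and the 3 labelled as having received dexamethasone, all at day 9 and chosen by those labels alone. In each culture naive CD8+ cells, sorted as CD62L high and CD44 negative from spleen and lymph nodes of C57BL/6 mice, were stimulated for 3 days with plate-bound antibodies to CD3 and CD28 (1 µg/ml each), rested for 3 days in 5 ng/ml IL2, and stimulated again for 3 days. Dexamethasone (Dex) was used at 10 nM and IL27 at 25 ng/ml, each present during both stimulations. The group with Dex alone is called Dex and the group with both is called Dex+IL27. Beside them stand the 3 day 9 libraries with neither agent (Ctrl) and the 3 with IL27 alone (IL27), which the comparison does not use. All 12 day 9 libraries came from WT cells, which the labels define as E8i-Cre negative with floxed Nr3c1 alleles (Nr3c1 fl/fl), so every group carries floxed alleles of the glucocorticoid receptor gene without that Cre. Each library was made from 1000 sorted cells with 11 cycles of amplification. Whether the replicates of a group were separate animals or separate cultures is not stated in the labels, so the p-values cover only the spread between these libraries.

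IL27 is a heterodimeric cytokine of antigen-presenting cells. It binds a receptor made of IL27RA and the shared subunit gp130 (encoded by Il6st), and signals through Janus kinases to transcription factors of the STAT family, among them STAT3. In T cells it is known for inducing interferon-stimulated genes and for promoting IL10 and inhibitory receptors, in part through the transcription factors Prdm1 and Maf. Dexamethasone is a synthetic glucocorticoid. It binds the receptor encoded by Nr3c1, which moves to the nucleus, activates genes such as Tsc22d3 and Fkbp5, and represses many cytokine genes.

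Values below are CPM, the counts of a gene scaled to the library's total counts with TMM factors. The libraries of a group are given in the order of replicates 1, 2 and 3, and means are given ± SD (n = 3). Changes are log2 fold changes of Dex+IL27 against Dex with their standard error (SE), from edgeR's quasi-likelihood test over all 12 day 9 libraries, and a gene is said to have risen or fallen where its Benjamini-Hochberg adjusted p was under 0.05. Total estimated counts were 16091100 to 16203600 in Dex and 17362000 to 18199000 in Dex+IL27. The ribosomal RNA precursor Rn45s took 14.1% to 15.05% of counts in Dex and 15.8% to 16.4% in Dex+IL27. Neither total nor share overlapped between the groups. With Rn45s left out of the fit 3942 genes passed, of which 1901 rose and 2041 fell, and 3874 were also called in the main fit. Any other part of the totals or the share in the results was not tested. In a principal component analysis of the 6 libraries the leading component held 64.0% of the variance, with Dex between -29.0 and -20.1 and Dex+IL27 between 22.7 and 27.6.

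With IL27 added, the chemokine receptor gene Ccr2, the chemokine gene Ccl5, the T-bet gene Tbx21, the inhibitory receptor genes Tigit and Lag3 and the interferon-stimulated gene Irf1 rose. Bcl2, Tcf7, Socs1 and most genes of the cell cycle fell, as did many cytokine genes. Of 12320 genes tested, 3942 (32.0%) passed the test. Of these 1834 rose (14.9% of genes tested) and 2108 fell (17.1%), and 334 rose and 427 fell by at least 2-fold. The shares of 14.9% and 17.1% are the background for each count of list members below. In bulk libraries fewer cells of a type and less RNA per cell cannot be told apart, which holds for every change below. The libraries of the 2 groups did not overlap for 5544 genes (45.0%). Of 131 called genes in the fixed set, lowest in p of a list or among the largest changes, 130 did not overlap. For a called gene it therefore adds little that its libraries did not overlap. The median change of all genes tested was 0.0034 on the log2 scale. The split of rises and falls depended on scaling: with library totals alone 1400 genes rose and 2647 fell, and the median change was -0.065. Without replicate 2 of Dex the count of calls was 2780.

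**Figure D1:**
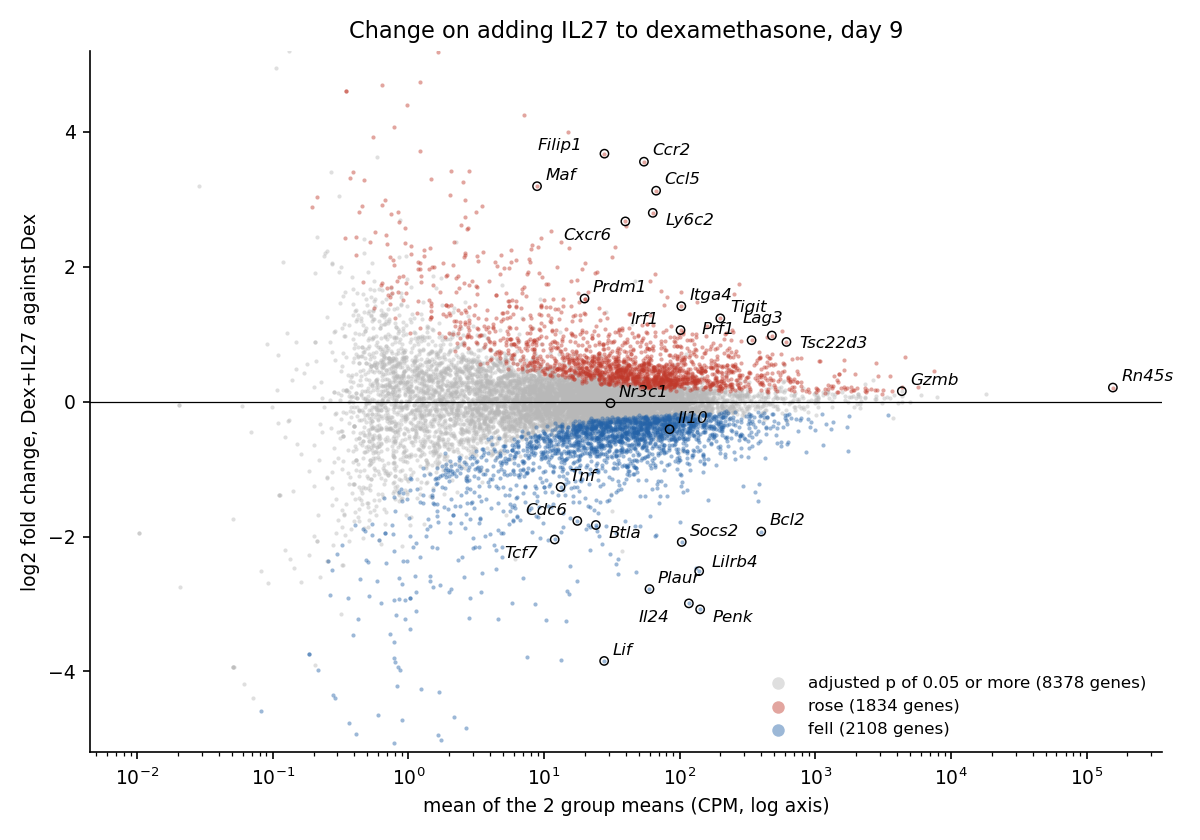
Each point is 1 of the genes tested, with the mean of the Dex and Dex+IL27 levels (CPM, log axis) on the x axis and the log2 fold change of Dex+IL27 against Dex on the y axis. Red points (1834) rose, blue points (2108) fell and grey points did not pass the test; circles mark named genes, Ccr2 and Maf lie high, Lif, Penk and Il24 lie low, and 16 genes with larger changes, most of them at low levels, lie outside the y axis.

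The genes of the IL27 signalling chain moved in both directions. Il27ra had 69.9, 61.9 and 66.4 CPM in Dex and 76.6, 75.0 and 81.5 in Dex+IL27 (log2 fold change 0.23 ± 0.089, adjusted p = 0.058). Its libraries did not overlap, but the change missed the threshold. With only the 2 groups compared in the fit it passed, at 0.24 (adjusted p = 0.034). Il6st, for gp130, had 9.84 ± 1.42 CPM in Dex and 11.3 ± 0.683 CPM in Dex+IL27 (log2 fold change 0.20 ± 0.19, adjusted p = 0.46). Of 20 genes of the receptor, its Janus kinases, STATs and their targets, 8 rose, 6 fell and 6 did not pass, with a median change of 0.15. The rises were the kinase genes Jak1, Jak2 and Tyk2, 4 STAT genes and Pias1, an inhibitor of STATs. Among them were Stat3 (log2 fold change 0.24 ± 0.056, adjusted p = 0.0045) and Stat4 (log2 fold change 0.34 ± 0.090, adjusted p = 0.0096), which carry the signals of IL27 and IL12. The calls of Jak1, Jak2, Tyk2 and Stat4 depended on single libraries. The call of Jak1 was lost without Dex replicate 2, Dex replicate 3, Dex+IL27 replicate 1 or Dex+IL27 replicate 3 (adjusted p = 0.065 to 0.11). The call of Jak2 was lost without Dex replicate 1, Dex replicate 3, Dex+IL27 replicate 1, Dex+IL27 replicate 2 or Dex+IL27 replicate 3 (adjusted p = 0.064 to 0.12). The call of Tyk2 was lost without Dex replicate 2, Dex replicate 3, Dex+IL27 replicate 1, Dex+IL27 replicate 2 or Dex+IL27 replicate 3 (adjusted p = 0.055 to 0.14). The call of Stat4 was lost without Dex replicate 3 or Dex+IL27 replicate 3 (adjusted p = 0.051 to 0.054). The number of rises was 3 to 5 without Dex replicate 3 or any 1 of the Dex+IL27 libraries, and 4 when scaled by library totals.

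The falls in the same list were mainly feedback genes that cytokine signalling itself induces. Socs2, an inhibitor of cytokine signalling, had 166, 178 and 159 CPM in Dex and 39.7, 40.0 and 39.2 in Dex+IL27 (log2 fold change -2.08 ± 0.090, adjusted p = 1.8e-09). The Dex+IL27 libraries were close to each other and all were well below the Dex libraries. Socs1, which blocks Janus kinases, had 164, 155 and 147 CPM in Dex and 45.5, 45.8 and 43.6 in Dex+IL27 (log2 fold change -1.79 ± 0.16, adjusted p = 2.3e-06). Cish, a target of STAT5, went from 515 ± 4.67 CPM in Dex to 203 ± 17.3 CPM in Dex+IL27 (log2 fold change -1.34 ± 0.11, adjusted p = 1.2e-06), and the kinase gene Pim2 from 80.1 ± 3.01 CPM in Dex to 30.4 ± 0.896 CPM in Dex+IL27 (log2 fold change -1.40 ± 0.080, adjusted p = 2.9e-08). Socs3, the feedback inhibitor that binds gp130, was lower too, at 124, 130.2 and 113 CPM in Dex and 87.1, 79.2 and 88.3 in Dex+IL27 (log2 fold change -0.53 ± 0.12, adjusted p = 0.0031). For each of the 5 genes every Dex library lay above every Dex+IL27 library, which adds little for genes already called.

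Interferon-stimulated genes rose more often than they fell. Of 60 tested, 20 rose, 6 fell and 34 did not pass, and the median change was 0.18 against 0.0034 for all genes tested. The number that rose was 13 without replicate 3 of Dex+IL27, and the number that fell was 3 without its replicate 1. Irf1, a transcription factor that interferons induce, had 79.9, 60.6 and 57.2 CPM in Dex and 152, 121 and 139 in Dex+IL27 (log2 fold change 1.06 ± 0.20, adjusted p = 0.0013). All Dex+IL27 libraries exceeded all Dex libraries. Gbp2, a guanylate-binding GTPase that attacks vacuoles of pathogens, had 69.1, 66.9 and 70.3 CPM in Dex and 128, 106 and 133 in Dex+IL27 (log2 fold change 0.83 ± 0.12, adjusted p = 0.00015). Mx1, an antiviral GTPase, had 2.47, 2.82 and 1.80 CPM in Dex and 10.7, 6.03 and 13.6 in Dex+IL27 (log2 fold change 2.09 ± 0.39, adjusted p = 0.00098). Its Dex+IL27 libraries were spread over more than 2-fold, with replicate 2 the lowest. Zbp1, a sensor of nucleic acids that can trigger cell death, rose from 10.7 ± 2.08 CPM in Dex to 26.0 ± 10.9 CPM in Dex+IL27 (log2 fold change 1.28 ± 0.25, adjusted p = 0.0014). Falls were found for Oas1a, an enzyme of the RNase L pathway (log2 fold change -1.38 ± 0.28, adjusted p = 0.0017), and for the surface proteins Ly6a and Ly6e (-0.30 and -0.37). A pattern seen after the values were known was that replicate 2 of Dex+IL27 was the lowest of its group for 17 of the 20 interferon-stimulated genes that rose, against 42.9% of all genes that rose.

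Promoters of some interferon-stimulated genes that rose are printed because interferon signals act on such genes through GAS and ISRE elements. They were taken from RefSeq (GRCm38.p6) for 9149 of the 12320 genes tested, as 300 bases from 250 before to 50 after the start, and searched on both strands for the GAS pattern TTCNNNGAA and the ISRE core GAAANNGAA. Shown are the 150 bases before the start, on the strand of the gene, of the 6 genes with the largest rise that had a match, which lies in the printed part in each. Mx1, Zbp1 and Epsti1 rose more than Gbp2, and Tap1 rose more than Gbp7, but these genes are not shown. No match or no RefSeq promoter was found for them, and only the first listed start of each gene was searched. Capitals mark the matches, and adjoining matches share bases or run together.
Irf1, chr11:53769864-53770013, plus strand: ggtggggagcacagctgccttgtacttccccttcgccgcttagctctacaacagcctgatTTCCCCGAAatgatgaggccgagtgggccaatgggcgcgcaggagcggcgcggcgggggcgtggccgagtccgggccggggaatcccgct
Gbp2, chr3:142620513-142620662, plus strand: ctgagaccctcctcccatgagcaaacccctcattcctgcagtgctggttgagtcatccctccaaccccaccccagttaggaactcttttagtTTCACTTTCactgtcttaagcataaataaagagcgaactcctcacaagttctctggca
Irgm1, chr11:48871421-48871570, minus strand: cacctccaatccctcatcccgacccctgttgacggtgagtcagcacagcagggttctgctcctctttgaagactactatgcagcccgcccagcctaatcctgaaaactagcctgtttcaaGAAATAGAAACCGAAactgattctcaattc
Gbp3, chr3:142559894-142560043, plus strand: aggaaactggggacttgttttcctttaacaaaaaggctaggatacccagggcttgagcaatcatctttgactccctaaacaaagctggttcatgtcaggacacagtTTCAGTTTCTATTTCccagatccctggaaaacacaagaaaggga
Gbp7, chr3:142530186-142530335, plus strand: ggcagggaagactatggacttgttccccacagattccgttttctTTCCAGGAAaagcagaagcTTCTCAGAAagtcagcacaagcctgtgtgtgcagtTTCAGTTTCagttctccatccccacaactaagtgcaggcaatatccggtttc
Irgm2, chr11:58214827-58214976, plus strand: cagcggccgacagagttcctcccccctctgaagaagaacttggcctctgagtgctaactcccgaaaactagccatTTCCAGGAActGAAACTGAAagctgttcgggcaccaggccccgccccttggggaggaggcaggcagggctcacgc
Irf1 has a GAS match that begins 90 bases before the start. Beside Irf1, Gbp2 and Irgm1, whose values stand above and below, Gbp3 had 47.8 ± 4.72 CPM in Dex and 76.1 ± 1.18 CPM in Dex+IL27 (log2 fold change 0.67 ± 0.089, adjusted p = 8.5e-05), Gbp7 had 53.0 ± 2.83 CPM in Dex and 74.5 ± 13.5 CPM in Dex+IL27 (log2 fold change 0.49 ± 0.12, adjusted p = 0.0073) and Irgm2 had 29.4 ± 3.91 CPM in Dex and 40.6 ± 8.04 CPM in Dex+IL27 (log2 fold change 0.47 ± 0.17, adjusted p = 0.049). The libraries of Irgm2 overlapped between the groups. The call of Irgm2 was lost without Dex replicate 2, Dex replicate 3, Dex+IL27 replicate 1 or Dex+IL27 replicate 3 (adjusted p = 0.095 to 0.22). Gbp7 and Irgm2 hold both patterns, and Gbp2, Irgm1 and Gbp3 hold only the ISRE core. Irgm1 and Gbp3 each have 2 ISRE matches that overlap. A GAS or ISRE match was found in 13.4% of all promoters, in 12.8% of those of genes that rose and in 15.1% of those of genes that fell. Among interferon-stimulated genes it was found in 9 of 15 that rose, 3 of 3 that fell and 16 of 25 that did not pass. The glucocorticoid response element core ACANNNTGT was found in 4.26% of all promoters, 4.19% of those of genes that rose and 2.90% of those of genes that fell. A match is a description of the sequence and no evidence of binding.

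The same genes moved differently when IL27 was given without Dex. In IL27 against Ctrl, which shares no library with Dex+IL27 against Dex, 10 of the 60 interferon-stimulated genes rose and 30 fell (29.3% and 28.1% of all genes tested). The median change was -0.41. The test of the difference, the change with Dex minus the change without Dex, was higher for 28 of the 60 and lower for 2, against 13.7% and 14.7% of all genes tested. Irgm1, an immunity-related GTPase, shows the pattern: it had 79.5, 91.0 and 89.5 CPM in Ctrl and 70.4, 46.3 and 52.2 in IL27, and 61.2, 55.8 and 57.5 in Dex and 115, 76.9 and 105 in Dex+IL27. Its difference of changes was 1.39 ± 0.21 (adjusted p = 0.00029). Gbp2 and Gbp3 rose in both settings, by 1.27 and 0.72 without Dex and by 0.83 and 0.67 with it.

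**Figure D2:**
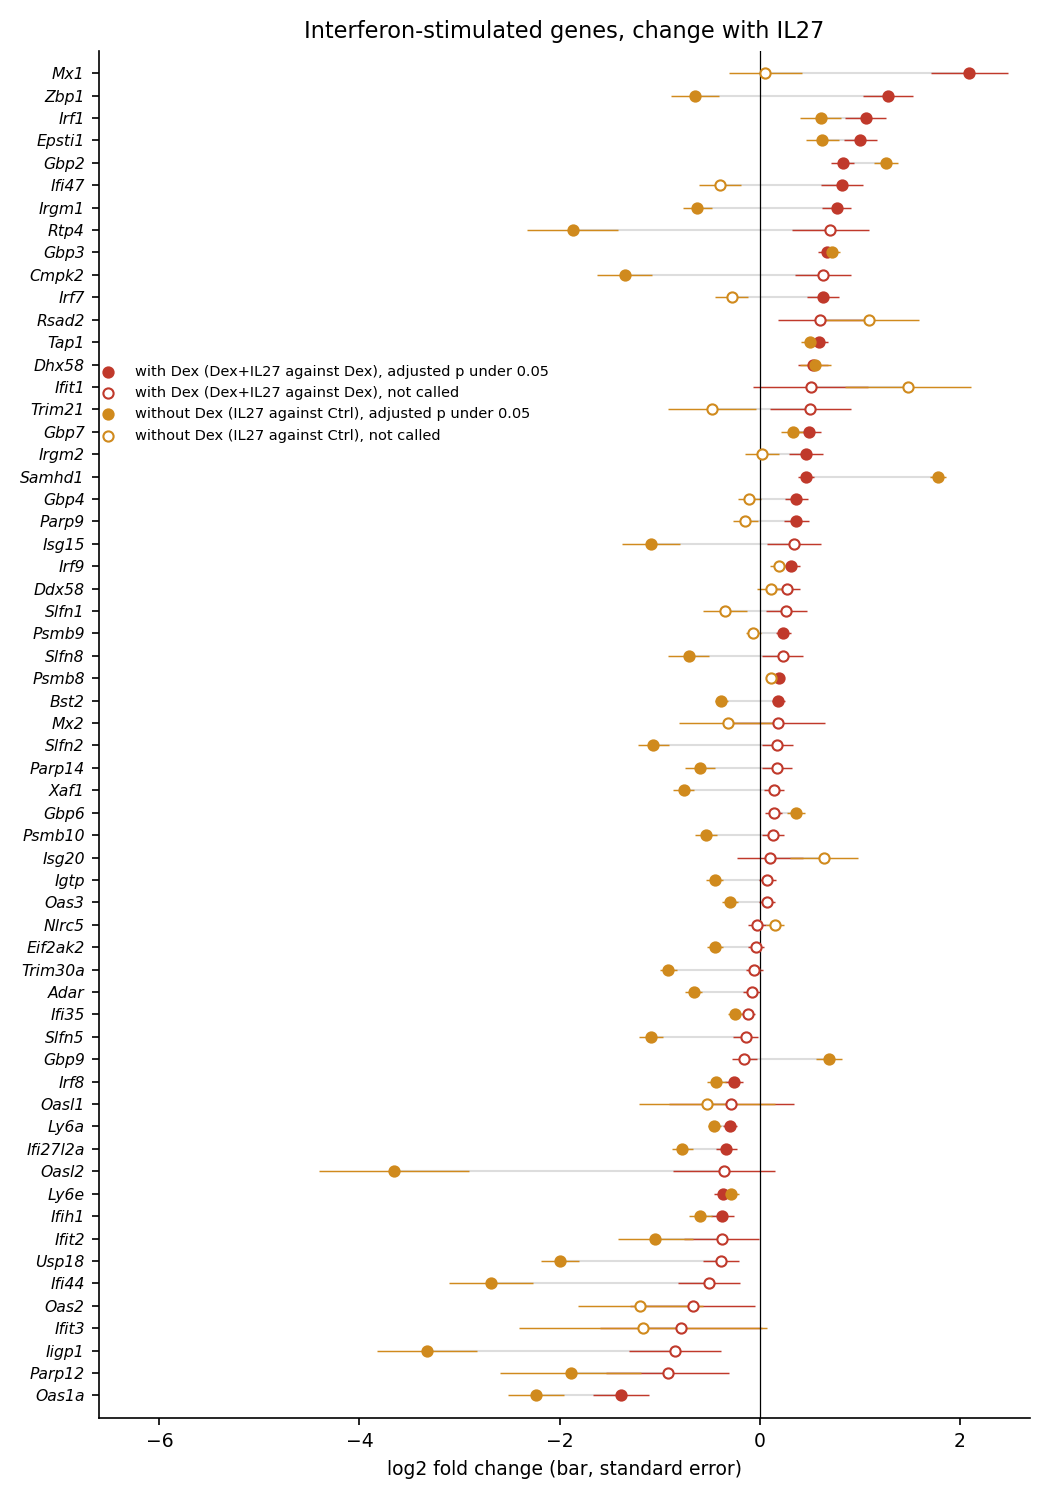
Each row is 1 of the 60 interferon-stimulated genes tested, ordered by the log2 fold change with Dex (red, Dex+IL27 against Dex); orange gives the change without Dex (IL27 against Ctrl), bars give the standard error and filled points passed the test. With Dex 20 genes rose and 6 fell, without Dex 10 rose and 30 fell, and the red point lies to the right of the orange one for most genes.

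Genes of MHC class I and of peptide loading, which overlap the interferon list, rose more often than they fell. Of 25 tested, 12 rose, 2 fell and 11 did not pass, with a median change of 0.17. Tap1, a subunit of the transporter that carries peptides into the endoplasmic reticulum, had 378, 333 and 341 CPM in Dex and 507, 520.0 and 557 in Dex+IL27 (log2 fold change 0.59 ± 0.10, adjusted p = 0.00044). Tap2, its partner, rose by 0.52 ± 0.079, and the class I heavy chains H2-D1 and H2-K1 rose by 0.17 ± 0.053 and 0.17 ± 0.057. The 2 falls were the chaperones Canx (-0.34) and Calr (-0.32). The call of H2-D1 was lost without Dex replicate 2, Dex replicate 3, Dex+IL27 replicate 1 or Dex+IL27 replicate 3 (adjusted p = 0.064 to 0.10). The call of H2-K1 was lost without Dex replicate 2, Dex replicate 3, Dex+IL27 replicate 1 or Dex+IL27 replicate 3 (adjusted p = 0.094 to 0.13). The call of Calr was lost without Dex replicate 2 or Dex+IL27 replicate 3 (adjusted p = 0.062 to 0.070). The number of rises was 7 when scaled by library totals, and 7 also without Dex replicate 2, Dex replicate 3, Dex+IL27 replicate 1 or Dex+IL27 replicate 3.

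Glucocorticoid-responsive genes did not move as 1 group. Nr3c1 itself had 31.3, 30.6 and 31.8 CPM in Dex and 33.7, 28.3 and 30.1 in Dex+IL27 (log2 fold change -0.023 ± 0.090, adjusted p = 0.87), and Fkbp5, a chaperone that restrains the receptor, had 120.2 ± 8.46 CPM in Dex and 127 ± 4.73 CPM in Dex+IL27 (log2 fold change 0.076 ± 0.091, adjusted p = 0.56). The libraries of both genes overlapped between the groups. Tsc22d3, the gene of GILZ, a leucine zipper protein that glucocorticoids induce, had 467, 376 and 451 CPM in Dex and 766, 819 and 803 in Dex+IL27, a rise beyond the spread (log2 fold change 0.88 ± 0.10, adjusted p = 2.4e-05). Of 26 genes of the list, 9 rose, 3 fell and 14 did not pass, with a median change of 0.24. The rises included Txnip, an inhibitor of thioredoxin (log2 fold change 0.65 ± 0.14, adjusted p = 0.0024), the metallothionein Mt2 (log2 fold change 1.01 ± 0.17, adjusted p = 0.00053), the IL7 receptor chain Il7r (log2 fold change 0.52 ± 0.12, adjusted p = 0.0034) and the transcriptional repressor Bcl6 (log2 fold change 2.43 ± 0.43, adjusted p = 0.00075). Plaur, the urokinase receptor, fell most. It had 3.21, 2.03 and 2.56 CPM in Ctrl and 0.226, 0.114 and 0.0526 in IL27, 104, 105 and 105 in Dex and 17.2, 14.7 and 13.8 in Dex+IL27 (log2 fold change -2.78 ± 0.12, adjusted p = 1.8e-09). Of the 4 day 9 groups, the 2 with Dex had the higher levels, and of these Dex+IL27 the lower.

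Maf and Prdm1, which are linked to IL10, rose. Maf, which activates Il10 in T cells, had 1.17, 2.08 and 1.99 CPM in Dex and 16.1, 16.7 and 15.2 in Dex+IL27 (log2 fold change 3.19 ± 0.34, adjusted p = 1.7e-05). The Dex+IL27 libraries lay within 2 CPM of each other and far above the rest. Prdm1, which encodes the effector regulator Blimp-1, had 11.4, 11.6 and 7.77 CPM in Dex and 22.99, 31.4 and 34.3 in Dex+IL27 (log2 fold change 1.53 ± 0.20, adjusted p = 9.1e-05). Il10 had 104, 97.4 and 87.9 CPM in Dex and 85.6, 65.8 and 65.9 in Dex+IL27 (log2 fold change -0.41 ± 0.18, adjusted p = 0.10). Every Dex+IL27 library was below every Dex library, but the change missed the threshold. It passed at -0.41 (adjusted p = 0.0094) with only the 2 groups compared in the fit, and at -0.40 (adjusted p = 0.0035) with no filter on low counts. Without Dex, Il10 was at 0.720, 1.36 and 0.313 CPM in Ctrl and 5.66, 6.74 and 10.4 in IL27 (log2 fold change 3.27 ± 0.33, adjusted p = 1.1e-06), and the difference of changes was -3.68 ± 0.39 (adjusted p = 1.6e-05). Without Ctrl replicate 2 these were 3.87 and -4.27. Among 19 genes of IL10 and its regulators 6 rose, 6 fell and 7 did not pass. Rises were also seen for Nfil3 (0.68), Ikzf3 (0.68) and Ikzf1 (0.28), and falls for Gata3 (-1.84), Egr2 (-1.91), Irf4 (-0.56), the IL10 receptor chain Il10ra (-1.14), Ebi3 (-0.92) and Ahr (-2.92). Ebi3 encodes a subunit of IL27 itself. The call of Irf4 was lost without Dex replicate 2 or Dex+IL27 replicate 1 (adjusted p = 0.050 to 0.062). Without Dex+IL27 replicate 2 the change of Ahr was -4.17.

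Regulators of effector fate and of activation parted. Of 33 transcription factors of effector and dysfunctional cells 8 rose, 14 fell and 11 did not pass, and the number of falls was 9 without Dex replicate 2. Tbx21, the T-bet gene of the type 1 program, had 34.9, 34.7 and 30.0 CPM in Dex and 76.8, 65.0 and 77.0 in Dex+IL27 (log2 fold change 1.14 ± 0.14, adjusted p = 6.3e-05). Runx3, which maintains CD8 identity and cytotoxicity, rose from 179 ± 19.96 CPM in Dex to 297 ± 6.06 CPM in Dex+IL27 (log2 fold change 0.73 ± 0.12, adjusted p = 0.00046). Egr1, an immediate early gene downstream of the T cell receptor, had 29.5, 34.1 and 42.5 CPM in Dex and 11.6, 10.7 and 12.4 in Dex+IL27 (log2 fold change -1.61 ± 0.15, adjusted p = 4.9e-06). Tox, a factor of exhausted cells, fell from 8.72 ± 1.60 CPM in Dex to 2.96 ± 1.04 CPM in Dex+IL27 (log2 fold change -1.55 ± 0.26, adjusted p = 0.00044), and Id3, of memory precursors, from 12.9 ± 1.44 CPM in Dex to 4.85 ± 0.865 CPM in Dex+IL27 (log2 fold change -1.40 ± 0.17, adjusted p = 4.3e-05). Nr4a1, another early gene of receptor signalling, fell by 1.12 ± 0.21 on the log2 scale. Eomes, the partner of T-bet, fell from a low level, with 2.04, 0.245 and 1.74 CPM in Dex and 0.114, 0.0609 and 0.173 in Dex+IL27 (log2 fold change -3.44 ± 0.78, adjusted p = 0.0039). With limma on log2(FPKM + 1) its change was -0.39 (adjusted p = 0.076).

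**Figure D3:**
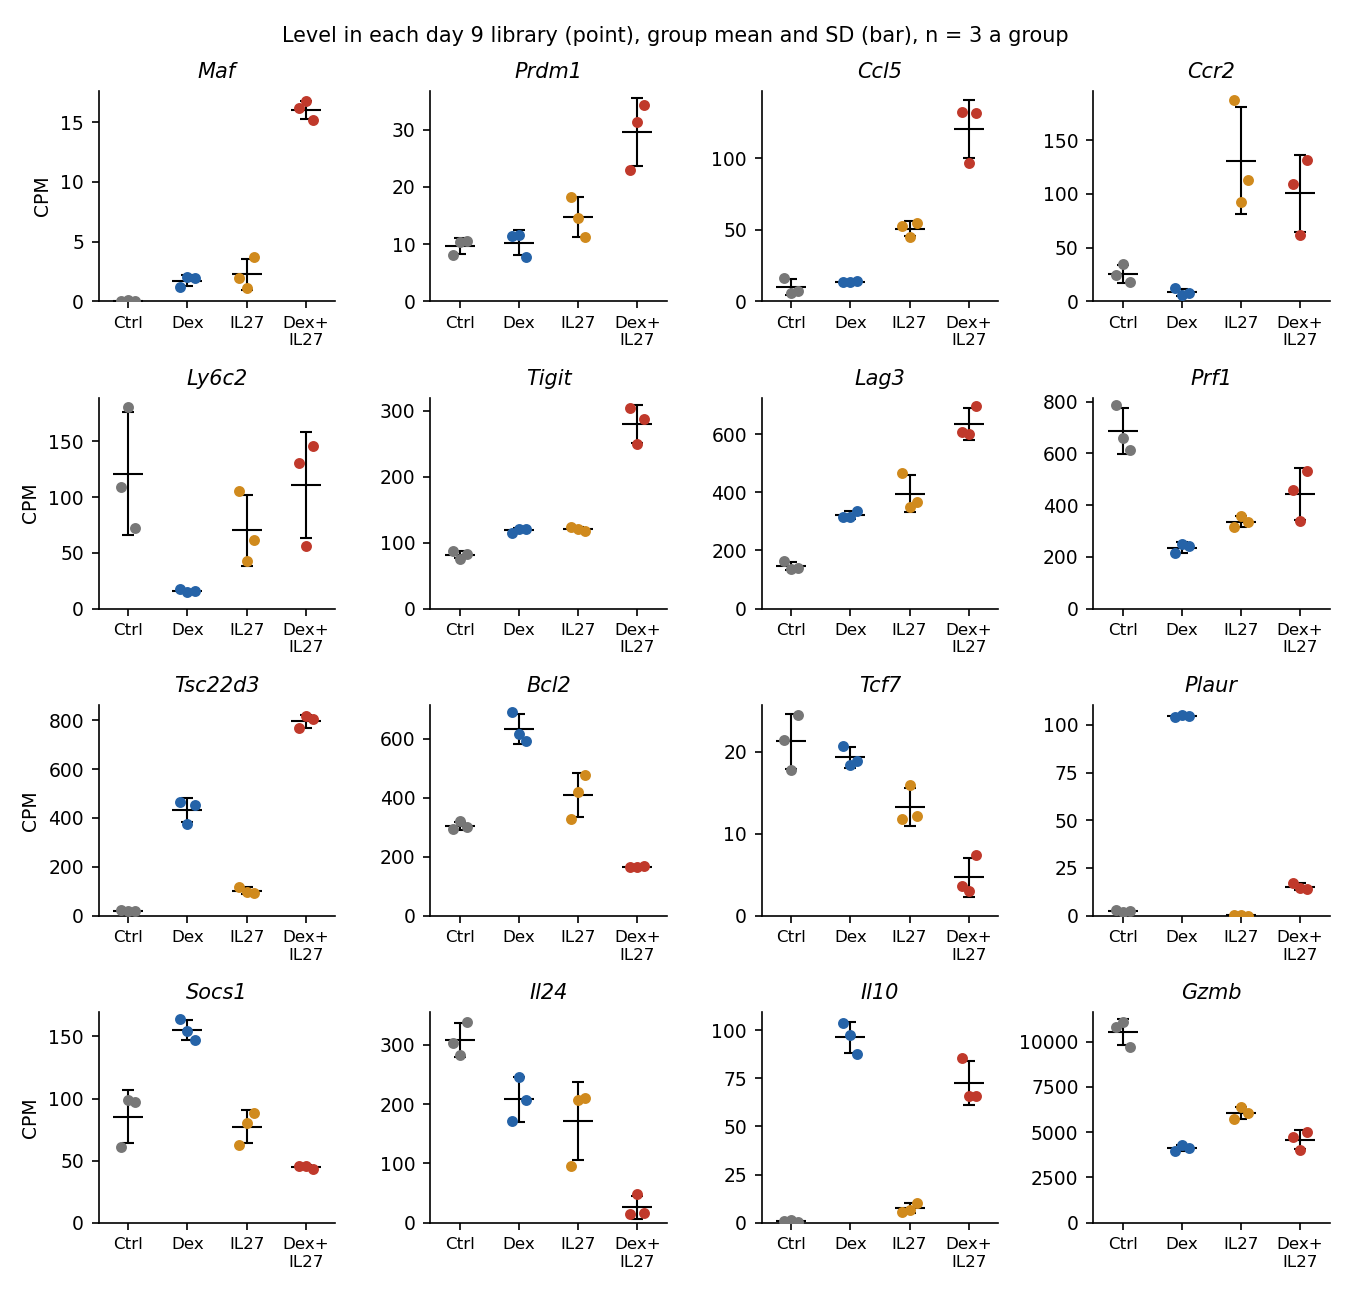
Each panel gives 1 gene in CPM (linear axis from 0) for the 12 day 9 libraries, with points for libraries and bars for the group mean and SD (n = 3). In Tigit, Maf and Tsc22d3 the 3 Dex+IL27 libraries are the highest of the 12, in Tcf7, Bcl2 and Socs1 they are the lowest, and in Gzmb they overlap the Dex libraries.

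Inhibitory receptors split into some that rose and some that fell. Of 24 inhibitory receptors and ectoenzymes 6 rose, 7 fell and 11 did not pass, with a median change of 0.11. Tigit, which competes with CD226 for their shared ligands, had 115, 121 and 121 CPM in Dex and 304, 249 and 287 in Dex+IL27 (log2 fold change 1.23 ± 0.078, adjusted p = 9.4e-08). Lag3, a ligand of MHC class II, had 315, 315 and 338 CPM in Dex and 607, 603 and 698 in Dex+IL27 (log2 fold change 0.98 ± 0.10, adjusted p = 1.2e-05). Entpd1, the ectoenzyme CD39 that degrades extracellular ATP, had 48.1, 51.6 and 55.2 CPM in Dex and 103, 117 and 103 in Dex+IL27 (log2 fold change 1.06 ± 0.12, adjusted p = 2.0e-05). For each of these 3 genes all Dex+IL27 libraries lay above all Dex libraries. The other rises were the adenosine receptor Adora2a (log2 fold change 1.05 ± 0.12, adjusted p = 3.1e-05), the collagen receptor Lair1 (log2 fold change 1.43 ± 0.44, adjusted p = 0.024) and Cd5, which dampens T cell receptor signals (log2 fold change 0.70 ± 0.082, adjusted p = 3.5e-05). The call of Lair1 was lost without Dex replicate 2, Dex replicate 3, Dex+IL27 replicate 1 or Dex+IL27 replicate 3 (adjusted p = 0.061 to 0.10).

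The largest falls among inhibitory receptors exceeded the largest rises. Lilrb4 had 248, 242 and 221 CPM in Dex and 44.6, 41.8 and 38.3 in Dex+IL27 (log2 fold change -2.51 ± 0.11, adjusted p = 1.8e-09). Btla, the receptor for HVEM, had 35.1, 37.9 and 40.1 CPM in Dex and 9.30, 11.3 and 11.2 in Dex+IL27 (log2 fold change -1.83 ± 0.13, adjusted p = 2.9e-07). Nt5e, the ectoenzyme CD73 that makes adenosine, fell from 61.5 ± 19.3 CPM in Dex to 29.2 ± 4.75 CPM in Dex+IL27 (log2 fold change -1.08 ± 0.19, adjusted p = 0.00066), so the 2 ectoenzymes of the adenosine pathway moved in opposite directions. Ctla4 fell from 363 ± 25.4 CPM in Dex to 249 ± 5.29 CPM in Dex+IL27 (log2 fold change -0.55 ± 0.070, adjusted p = 6.8e-05) and Cd274, which encodes PD-L1, from 74.6 ± 5.02 CPM in Dex to 43.8 ± 1.80 CPM in Dex+IL27 (log2 fold change -0.77 ± 0.11, adjusted p = 0.00011). Pdcd1, which encodes PD-1, had 265, 205 and 232 CPM in Dex and 193, 136 and 189 in Dex+IL27 (log2 fold change -0.44 ± 0.13, adjusted p = 0.018). The call of Pdcd1 was lost without Dex replicate 1 or Dex+IL27 replicate 2 (adjusted p = 0.071 to 0.080). Havcr2, which encodes TIM-3, had 46.7 ± 3.74 CPM in Dex and 58.7 ± 4.41 CPM in Dex+IL27 (log2 fold change 0.33 ± 0.20, adjusted p = 0.22) and did not pass. It passed at 0.33 (adjusted p = 0.015) with only the 2 groups compared in the fit, and at 0.34 (adjusted p = 0.027) with no filter on low counts.

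Cytokine genes fell more often than they rose. Of 31 cytokines and chemokines 4 rose, 13 fell and 14 did not pass. The median change was -1.24, or -0.90 over 28 genes when genes at 0 counts in a group were set to their bound and those near 0 in both groups were left out. Lif, a cytokine of the IL6 family, had 47.0, 57.2 and 51.6 CPM in Dex and 4.85, 4.63 and 1.38 in Dex+IL27 (log2 fold change -3.84 ± 0.32, adjusted p = 1.4e-06). Il24 had 171, 245 and 208 CPM in Dex and 14.3, 48.8 and 15.7 in Dex+IL27 (log2 fold change -2.99 ± 0.39, adjusted p = 7.0e-05). Replicate 2 of Dex+IL27 was the highest of its group there, and still below every Dex library. Without it the change was -3.79. Tnfsf8, the CD30 ligand, fell from 26.4 ± 1.68 CPM in Dex to 2.77 ± 0.227 CPM in Dex+IL27 (log2 fold change -3.25 ± 0.12, adjusted p = 1.3e-09), and Osm, which signals through gp130 as IL27 does, from 60.8 ± 1.67 CPM in Dex to 17.8 ± 1.33 CPM in Dex+IL27 (log2 fold change -1.78 ± 0.14, adjusted p = 6.4e-07). Tnf and Lta, the tumour necrosis factor genes, fell by 1.27 ± 0.22 and 1.24 ± 0.18 on the log2 scale, and the chemokine Xcl1 fell by 1.47 ± 0.28. Cxcl10, an interferon-induced chemokine, fell by 2.26 ± 0.74. The call of Cxcl10 was lost without any 1 of the 6 libraries (adjusted p = 0.056 to 0.10). Il22 did not pass the test in the main fit, and passed with no filter on low counts (adjusted p = 0.00038). Without Dex replicate 2 its adjusted p was 0.49. It had 19 counts in Dex and 0 in Dex+IL27, summed over the libraries of each group. With 0 replaced by a floor of 3 counts per group, that is at least 7.01-fold lower. For Ccl1 the counts were 15 and 0, at least 5.53-fold lower.

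Ccl5 was the largest rise among the cytokines. It had 13.5, 13.8 and 14.1 CPM in Dex and 132, 97.1 and 132 in Dex+IL27 (log2 fold change 3.13 ± 0.25, adjusted p = 8.4e-07), and encodes the chemokine RANTES. All Dex+IL27 libraries exceeded all Dex libraries, the other way round from Lif. Ccl9 rose from 10.3 ± 1.95 CPM in Dex to 39.1 ± 1.81 CPM in Dex+IL27 (log2 fold change 1.92 ± 0.27, adjusted p = 0.00012). Csf1, for the macrophage growth factor, rose as well (log2 fold change 1.44 ± 0.51, adjusted p = 0.041). The call of Csf1 was lost without any 1 of the 6 libraries (adjusted p = 0.051 to 0.14). Tgfb3 rose from 21.98 ± 5.42 CPM in Dex to 45.0 ± 8.90 CPM in Dex+IL27 (log2 fold change 1.03 ± 0.28, adjusted p = 0.011). The call of Tgfb3 was lost without Dex replicate 2, Dex replicate 3 or Dex+IL27 replicate 3 (adjusted p = 0.050 to 0.055). Ifng, the interferon gamma gene, was low in both groups, at 5.68, 24.4 and 14.4 CPM in Dex and 14.3, 5.91 and 16.2 in Dex+IL27 (log2 fold change -0.28 ± 0.51, adjusted p = 0.72). These levels overlapped, and Ctrl had 1180.0, 907 and 831 CPM.

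Cytotoxic genes rose in part. Of 24 granule genes 6 rose, 2 fell and 16 did not pass, against 14.9% and 17.1% of all genes tested that rose and fell. The median change was 0.15. Prf1, for the pore protein perforin, had 213, 251 and 243 CPM in Dex and 459, 337 and 532 in Dex+IL27 (log2 fold change 0.91 ± 0.13, adjusted p = 0.00019). Nkg7, a granule membrane protein, had 569.7, 566 and 572 CPM in Dex and 919.9, 806 and 936 in Dex+IL27 (log2 fold change 0.64 ± 0.068, adjusted p = 1.5e-05). Gzmb, for granzyme B, had 3949.7, 4279 and 4121 CPM in Dex and 4718, 3999 and 5026 in Dex+IL27, which overlapped (log2 fold change 0.15 ± 0.073, adjusted p = 0.13). The change passed at 0.16 (adjusted p = 0.018) with no filter on low counts, and at 0.24 (adjusted p = 0.0089) without Dex+IL27 replicate 2. The gene of granzyme K, Gzmk, had 0 counts in all 3 Dex libraries and 3.82, 1.77 and 6.22 CPM in Dex+IL27 (204 counts in all), at least 61.5-fold higher. Fasl, the death ligand, fell from 43.0 ± 5.47 CPM in Dex to 28.8 ± 4.81 CPM in Dex+IL27 (log2 fold change -0.58 ± 0.14, adjusted p = 0.0049).

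Receptors for migration changed strongly in both directions. Of 24 trafficking receptors and integrins 9 rose, 7 fell and 8 did not pass. Ccr2, the receptor of monocyte chemoattractants, had 12.3, 5.87 and 7.46 CPM in Dex and 109, 61.3 and 132 in Dex+IL27 (log2 fold change 3.56 ± 0.36, adjusted p = 9.5e-06). Cxcr6, the receptor of CXCL16, had 21.4, 6.73 and 4.35 CPM in Dex and 78.9, 37.4 and 90.2 in Dex+IL27 (log2 fold change 2.67 ± 0.61, adjusted p = 0.0039). In both genes replicate 2 was the lowest Dex+IL27 library and still above every Dex library. Without Dex replicate 1 the change of Cxcr6 was 3.63. Itga4, the alpha chain of the integrin VLA-4, had 61.3, 52.1 and 55.1 CPM in Dex and 152, 145 and 153 in Dex+IL27 (log2 fold change 1.41 ± 0.090, adjusted p = 9.4e-08). For Itga1 the group totals were 0 counts in Dex and 40 in Dex+IL27, at least 12.1-fold higher. Falls were found for Ccr4 (log2 fold change -1.72 ± 0.15, adjusted p = 2.3e-06), for the lymph node homing receptor Ccr7, from 539.5 ± 18.9 CPM in Dex to 230.4 ± 47.9 CPM in Dex+IL27 (log2 fold change -1.23 ± 0.14, adjusted p = 2.5e-05), for Gpr183, the receptor for oxysterols (log2 fold change -0.98 ± 0.13, adjusted p = 8.2e-05), and for the integrin chain Itgb1 (log2 fold change -1.15 ± 0.14, adjusted p = 3.4e-05).

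Costimulatory genes fell more often than they rose, and genes of the T cell receptor complex rose more often than they fell. Of 30 genes of costimulation and NF-kB 3 rose, 14 fell and 13 did not pass, with a median change of -0.36. Cd226, the activating counterpart of Tigit, had 41.5, 36.2 and 39.8 CPM in Dex and 8.27, 10.2 and 12.7 in Dex+IL27 (log2 fold change -1.91 ± 0.13, adjusted p = 2.1e-07), while Tigit itself had risen. Slamf1 fell from 89.6 ± 0.931 CPM in Dex to 36.4 ± 0.709 CPM in Dex+IL27 (log2 fold change -1.30 ± 0.089, adjusted p = 1.9e-07), Il2ra, the high-affinity chain of the IL2 receptor, from 1394 ± 110.1 CPM in Dex to 894 ± 81.5 CPM in Dex+IL27 (log2 fold change -0.64 ± 0.095, adjusted p = 0.00020), and Nfkb1 from 90.3 ± 6.03 CPM in Dex to 54.9 ± 1.10 CPM in Dex+IL27 (log2 fold change -0.72 ± 0.074, adjusted p = 1.1e-05). The 3 rises were Cd28 (log2 fold change 0.83 ± 0.091, adjusted p = 1.8e-05), Tnfaip3, an inhibitor of NF-kB (log2 fold change 0.66 ± 0.10, adjusted p = 0.00032), and Tnfrsf1b (log2 fold change 0.51 ± 0.092, adjusted p = 0.00084). Of 26 genes of the receptor complex and its first signalling steps 12 rose, 5 fell and 9 did not pass, with a median change of 0.076, and the number of falls was 2 without Dex replicate 1 or replicate 3. Cd247, the zeta chain, rose from 137 ± 4.38 CPM in Dex to 204 ± 11.9 CPM in Dex+IL27 (log2 fold change 0.57 ± 0.064, adjusted p = 2.4e-05), and the ubiquitin ligase Cblb, which restrains receptor signalling, from 144 ± 14.8 CPM in Dex to 231 ± 6.70 CPM in Dex+IL27 (log2 fold change 0.68 ± 0.072, adjusted p = 1.5e-05). Among 27 cytokine receptors 5 rose and 7 fell, which is near the 14.9% and 17.1% of all genes tested. Ifngr2, a chain of the interferon gamma receptor, had 33.6, 27.8 and 28.8 CPM in Dex and 4.62, 4.57 and 5.13 in Dex+IL27 (log2 fold change -2.65 ± 0.16, adjusted p = 5.3e-08), whereas its partner Ifngr1 rose from 425 ± 66.2 CPM in Dex to 691 ± 106 CPM in Dex+IL27 (log2 fold change 0.70 ± 0.14, adjusted p = 0.0020).

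Genes of naive and memory cells and of survival were divided too. Of 21 naive and memory genes 6 rose, 6 fell and 9 did not pass. Bcl2, the survival factor, had 689, 617 and 592 CPM in Dex and 166, 166 and 167 in Dex+IL27 (log2 fold change -1.93 ± 0.11, adjusted p = 2.2e-08). The Dex+IL27 libraries agreed within 2 CPM, and all were below every library of Ctrl (293, 321 and 302 CPM) and IL27 (329, 419 and 478 CPM). Tcf7, the TCF1 gene of stem-like cells, had 20.7, 18.4 and 18.9 CPM in Dex and 3.59, 3.05 and 7.37 in Dex+IL27 (log2 fold change -2.04 ± 0.25, adjusted p = 4.7e-05). Slamf6, often used with Tcf7 to mark the same cells, moved the opposite way, from 8.57 ± 2.20 CPM in Dex to 22.9 ± 5.77 CPM in Dex+IL27 (log2 fold change 1.42 ± 0.26, adjusted p = 0.00089), and so did Cd27 (log2 fold change 0.85 ± 0.12, adjusted p = 0.00017). Among 24 genes of apoptosis and survival 8 rose and 4 fell, against 14.9% and 17.1% of all genes tested. The prosurvival genes Mcl1 (log2 fold change 0.50 ± 0.081, adjusted p = 0.00039) and Bcl2a1b (log2 fold change 1.01 ± 0.10, adjusted p = 5.9e-06) rose, and so did the proapoptotic Bbc3, which encodes PUMA (log2 fold change 1.38 ± 0.23, adjusted p = 0.00054). Bcl2a1b has close copies among which reads may have been divided, and Bcl2a1d rose by 1.02 ± 0.17.

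Genes of the cell cycle fell almost throughout. Of 36 genes of S phase and mitosis 30 fell, 1 rose and 5 did not pass, and the median change was -0.83. Cdc6, which loads the replicative helicase, had 27.2, 28.0 and 26.5 CPM in Dex and 8.10, 7.92 and 7.95 in Dex+IL27 (log2 fold change -1.77 ± 0.10, adjusted p = 2.5e-08). Rrm2, a subunit of ribonucleotide reductase, had 130.5, 156 and 146 CPM in Dex and 54.4, 65.7 and 62.1 in Dex+IL27 (log2 fold change -1.25 ± 0.082, adjusted p = 1.2e-07). Mcm5, a helicase subunit, fell from 159 ± 16.7 CPM in Dex to 78.6 ± 4.07 CPM in Dex+IL27 (log2 fold change -1.02 ± 0.077, adjusted p = 4.7e-07), and Mki67, the proliferation marker, from 96.7 ± 12.1 CPM in Dex to 57.1 ± 4.11 CPM in Dex+IL27 (log2 fold change -0.76 ± 0.088, adjusted p = 3.2e-05). The 1 rise was Cdkn1b, which encodes the cell cycle inhibitor p27 (log2 fold change 0.61 ± 0.11, adjusted p = 0.00082).

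Genes of growth and metabolism moved by less. Of 26 genes of Myc and ribosome biogenesis 16 fell and 1 rose, with a median of -0.41. Nop56, of the box C/D particles that modify ribosomal RNA, fell from 199.8 ± 13.7 CPM in Dex to 105 ± 6.33 CPM in Dex+IL27 (log2 fold change -0.93 ± 0.11, adjusted p = 4.8e-05), and Myc fell from 370.4 ± 7.12 CPM in Dex to 284 ± 41.2 CPM in Dex+IL27 (log2 fold change -0.38 ± 0.11, adjusted p = 0.012). The call of Myc was lost without Dex+IL27 replicate 2 (adjusted p = 0.055). Of 25 genes of cholesterol and fatty acid synthesis 9 fell and 2 rose, among the falls Idi1, an isomerase of the pathway (log2 fold change -0.63 ± 0.090, adjusted p = 0.00016). Of 27 genes of glycolysis and hypoxia 12 rose and 2 fell, with a median of 0.34. Aldoa, for aldolase, had 3716, 3322 and 3648 CPM in Dex and 5313, 5867 and 5771 in Dex+IL27 (log2 fold change 0.67 ± 0.10, adjusted p = 0.00029), and Pfkfb3, which raises the activator of phosphofructokinase, rose from 38.8 ± 4.62 CPM in Dex to 64.5 ± 11.3 CPM in Dex+IL27 (log2 fold change 0.73 ± 0.14, adjusted p = 0.0011). Hk2, for hexokinase, was 1 of the 2 falls (log2 fold change -0.53 ± 0.13, adjusted p = 0.0055). Of 10 metallothionein and zinc transporter genes 3 rose, namely Mt1, Mt2 and Mt3, and 2 fell. Mt3 had 6.30, 8.02 and 8.08 CPM in Dex and 15.9, 16.1 and 14.7 in Dex+IL27 (log2 fold change 1.06 ± 0.15, adjusted p = 0.00012).

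**Figure D4:**
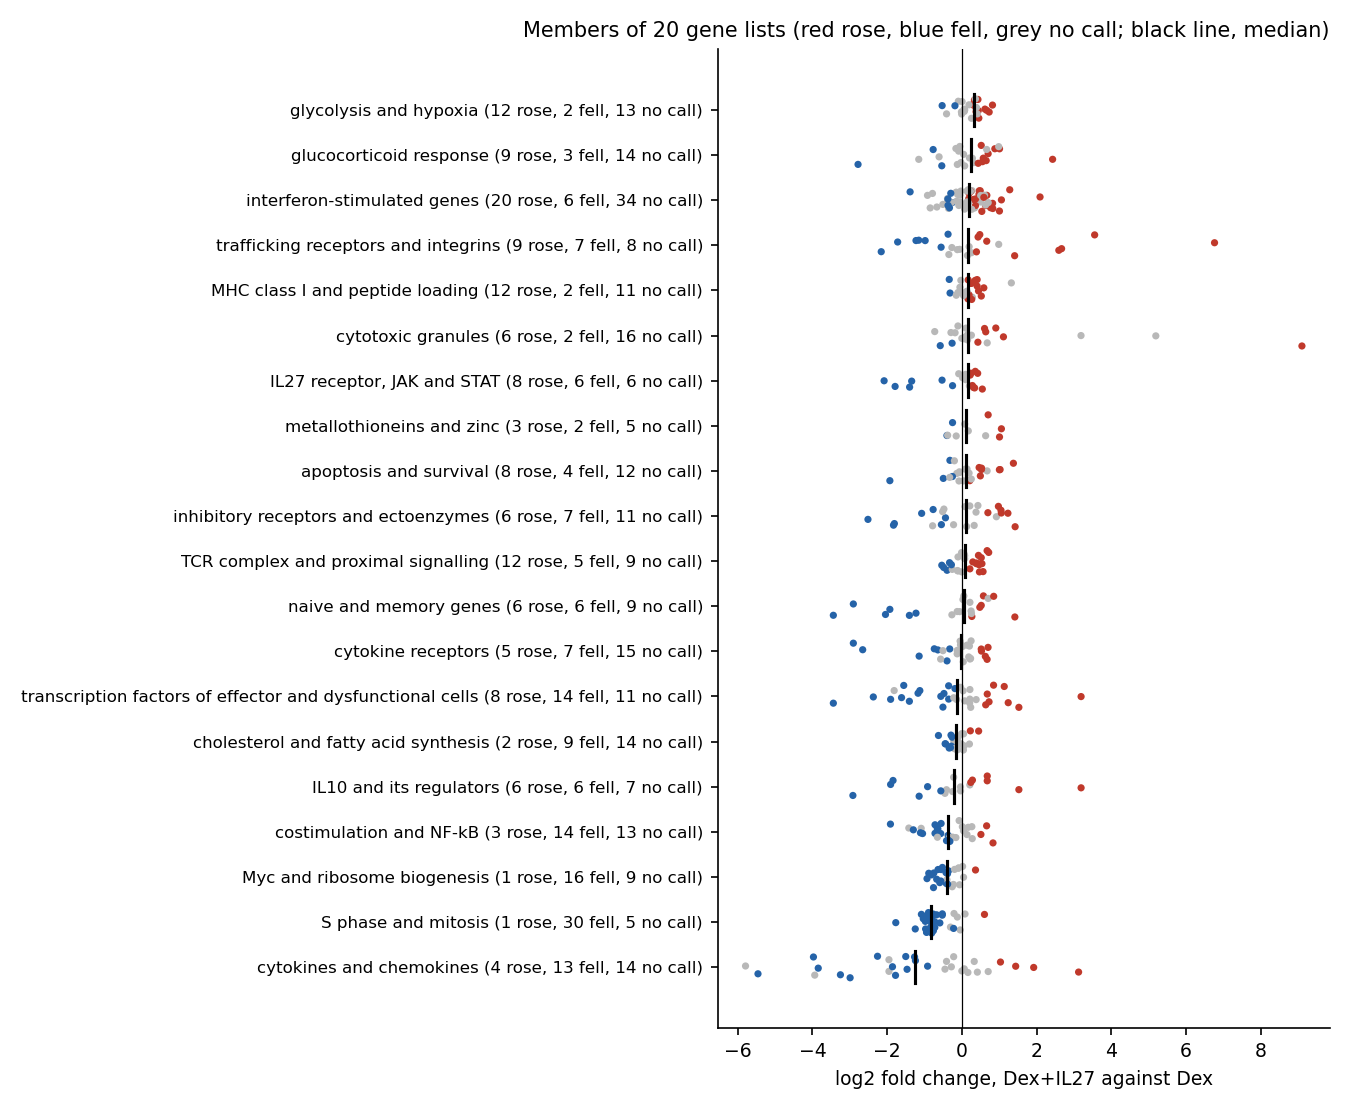
Each row is 1 of 20 gene lists ordered by its median, and each point is a tested member at its fitted log2 fold change of Dex+IL27 against Dex (red rose, blue fell, grey did not pass; black line, median). The lists of S phase and mitosis and of Myc and ribosome biogenesis lie mostly left of 0, those of glycolysis and of interferon-stimulated genes mostly right, and members at 0 counts in 1 group, such as Gzmk, appear at fitted values that are no bound.

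Several of the largest changes were in genes outside these lists. Among called genes of at least 10 CPM in 1 group with libraries that did not overlap, Cd7, an immunoglobulin-like receptor of T and NK cells, rose most, from 1.79, 0.0612 and 0.249 CPM in Dex to 18.9, 5.12 and 16.3 in Dex+IL27 (log2 fold change 4.25 ± 1.01, adjusted p = 0.0051). Igsf5 followed, with 3.39, 0.979 and 0.932 and 32.6, 18.2 and 34.0 CPM (log2 fold change 3.99 ± 0.58, adjusted p = 0.00016). Filip1, a filamin-binding protein, had 2.96, 4.65 and 4.54 CPM in Dex and 49.7, 47.1 and 58.6 in Dex+IL27 (log2 fold change 3.67 ± 0.16, adjusted p = 1.8e-09) and the tightest libraries of the 3. Ly6c2, an antigen of effector and memory CD8+ cells, had 17.2, 15.2 and 15.5 CPM in Dex and 131, 56.4 and 146 in Dex+IL27 (log2 fold change 2.80 ± 0.40, adjusted p = 0.00015). Serpinb1a, an inhibitor of granule proteases, rose from 3.35 ± 2.24 CPM in Dex to 19.3 ± 8.23 CPM in Dex+IL27 (log2 fold change 2.52 ± 0.65, adjusted p = 0.0082). Baiap3 rose from 4.32 ± 2.72 CPM in Dex to 22.4 ± 9.89 CPM in Dex+IL27 (log2 fold change 2.37 ± 0.70, adjusted p = 0.018). The call of Baiap3 was lost without Dex replicate 2, Dex replicate 3, Dex+IL27 replicate 1 or Dex+IL27 replicate 3 (adjusted p = 0.056 to 0.079). With DESeq2 its adjusted p was 0.094. Dex replicate 1 was the highest Dex library of these genes except Filip1, and without it the change was 6.38 for Cd7, 4.87 for Igsf5, 3.22 for Serpinb1a and 3.01 for Baiap3. Replicate 2 of Dex+IL27 was the lowest of its group in 11 of the 12 largest rises.

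Among the largest falls, Penk, the proenkephalin gene, had 152, 290.3 and 317 CPM in Dex and 13.2, 34.8 and 41.9 in Dex+IL27 (log2 fold change -3.08 ± 0.33, adjusted p = 1.6e-05). Tnfrsf11b, for the decoy receptor osteoprotegerin, had 28.1, 22.03 and 24.7 and 1.37, 2.07 and 1.84 CPM (log2 fold change -3.82 ± 0.27, adjusted p = 2.1e-07). Cd36, a fatty acid and scavenger receptor, had 12.8, 10.8 and 18.6 and 0.513, 0.670 and 1.84 CPM (log2 fold change -3.79 ± 0.43, adjusted p = 2.8e-05). These genes were chosen among those whose libraries did not overlap, so every Dex library lay above every Dex+IL27 library by that choice. Without Dex+IL27 replicate 3 the change of Cd36 was -4.56. Nrp1, a coreceptor of semaphorins, fell from 25.9 ± 2.18 CPM in Dex to 3.66 ± 1.29 CPM in Dex+IL27 (log2 fold change -2.81 ± 0.22, adjusted p = 8.4e-07), St6gal1, a sialyltransferase, from 18.8 ± 5.44 CPM in Dex to 1.98 ± 0.564 CPM in Dex+IL27 (log2 fold change -3.24 ± 0.35, adjusted p = 1.8e-05), and Fes, a tyrosine kinase gene, from 15.3 ± 1.99 CPM in Dex to 1.90 ± 1.04 CPM in Dex+IL27 (log2 fold change -3.002 ± 0.33, adjusted p = 1.9e-05). Irgc1 and AI480653 complete the 12 largest falls, with changes of -2.99 ± 0.38 and -2.85 ± 0.24.

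How far these changes also occurred without Dex was described from the 6 other day 9 libraries. In IL27 against Ctrl 7074 genes passed the test (57.4%), and without IL27 replicate 1, which lay apart from its group, 6378 did. Of the 3942 genes called with Dex, 2907 were also called without it in the same direction, which is 73.7% of the calls with Dex and 41.1% of those without. In the opposite direction 186 (4.72% and 2.63%) were called, of which 55 rose with Dex and fell without, and 131 fell with Dex and rose without. Across genes the 2 changes had a Pearson r of 0.54 and a Spearman rho of 0.58, and genes are not independent replicates. The test of the difference of changes passed for 3509 genes (28.5%). Among the 3942 it passed for 1532, and 2410 did not pass.

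Named genes fell on both sides of that test. Ly6c2 had 109, 181 and 72.3 CPM in Ctrl and 106, 42.9 and 61.5 in IL27, so it was low in Dex only, and its difference of changes was 3.58 ± 0.54 (adjusted p = 0.00026). Prf1 fell with IL27 without Dex (log2 fold change -1.03 ± 0.13, adjusted p = 1.0e-05) and rose with it, a difference of 1.94 ± 0.19 (adjusted p = 7.6e-06). Gzmb fell without Dex (log2 fold change -0.80 ± 0.074, adjusted p = 4.3e-07) and did not pass with it, a difference of 0.95 ± 0.10 (adjusted p = 2.2e-05). In the other direction, Bcl2 rose without Dex (log2 fold change 0.42 ± 0.10, adjusted p = 0.0024) and fell with it, a difference of -2.35 ± 0.15 (adjusted p = 1.6e-07). Crispld2, which encodes a secreted protein, had 3.05, 1.47 and 4.75 CPM in Ctrl, 9.00, 10.7 and 10.0 in IL27, 39.9, 25.6 and 32.5 in Dex and 6.33, 10.8 and 10.5 in Dex+IL27, a difference of -3.50 ± 0.41 (adjusted p = 4.1e-05). For Ccl5 the difference was 0.77 ± 0.35 (adjusted p = 0.11) and for Ccr2 it was 1.21 ± 0.47 (adjusted p = 0.066), neither of which passed, and both genes rose in each setting. Of 22 alternatives the difference passed in 2 for Ccl5 and in 6 for Ccr2.

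**Figure D5:**
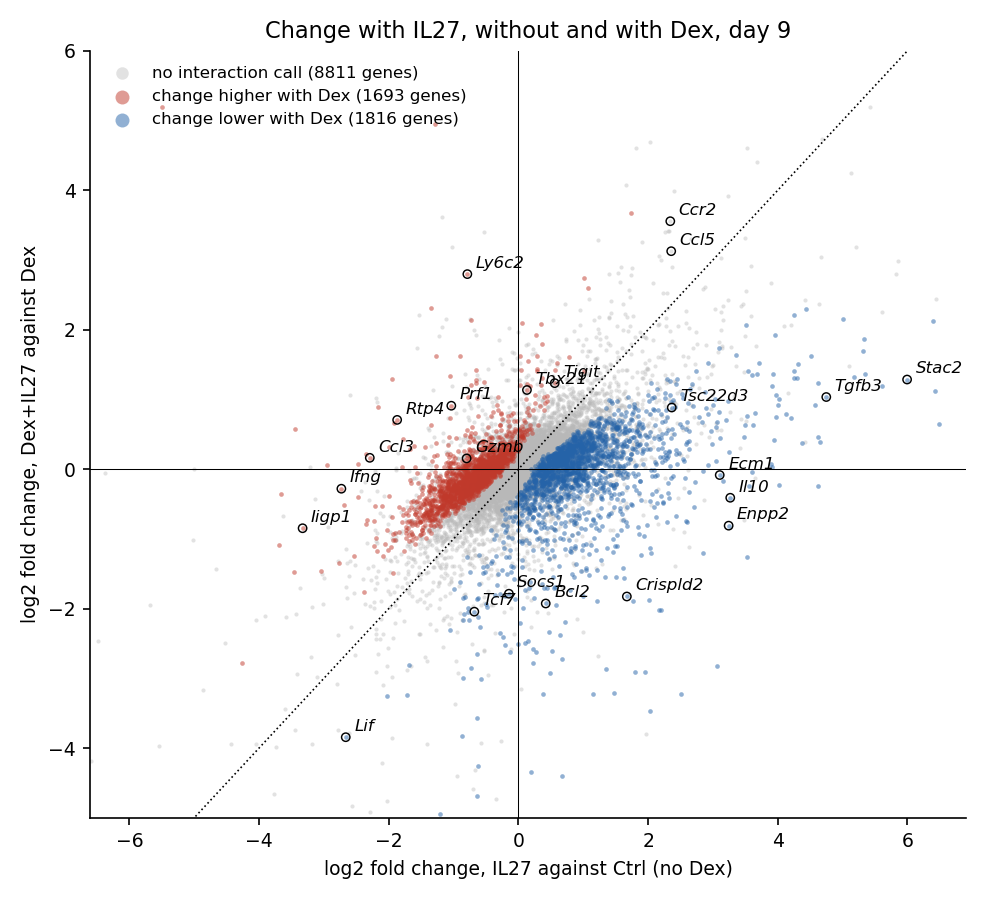
Each point is 1 of the genes tested, with the log2 fold change of IL27 against Ctrl on the x axis and of Dex+IL27 against Dex on the y axis; the dotted line marks equal changes, and 24 genes lie outside the axes. Red points had a higher change with Dex (1693 genes) and blue points a lower one (1816); Ly6c2 and Prf1 lie above 0 with Dex and below 0 without it, and Bcl2 and Crispld2 the other way round.

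Markers were checked for the labelled cell type and for others. The 8 markers of CD8 T cells were all detected, with a summed level of 2319 to 2602 CPM in Dex and 2364 to 2836 in Dex+IL27. Of these, Cd8a, a chain of the CD8 coreceptor, fell (log2 fold change -0.33 ± 0.11, adjusted p = 0.040), while Cd3e, Cd5 and Lck rose by 0.52 ± 0.10, 0.70 ± 0.082 and 0.22 ± 0.063. The call of Cd8a was lost without Dex replicate 1, Dex replicate 3, Dex+IL27 replicate 1 or Dex+IL27 replicate 2 (adjusted p = 0.063 to 0.16). The call of Lck was lost without Dex replicate 2, Dex replicate 3 or Dex+IL27 replicate 3 (adjusted p = 0.062 to 0.087). With library totals Lck had 0.15 (adjusted p = 0.071). Markers of other cells moved with the groups. The 14 myeloid and dendritic markers summed to 76.6 to 108 CPM in Dex and 216 to 239.9 in Dex+IL27, mostly from the MHC class II gene H2-Ab1 (89.4, 58.9 and 65.5 CPM in Dex and 188, 198 and 211 in Dex+IL27). H2-Ab1 and the integrin gene Itgam rose and Cd74, the class II invariant chain, fell. For Itgam the change was log2 fold change 2.25 ± 0.60, adjusted p = 0.010, and 3.13 without Dex replicate 1, and for Cd74 it was log2 fold change -0.99 ± 0.23, adjusted p = 0.0045. Cd68 had 9.20, 9.00 and 11.6 CPM in Dex and 13.3, 14.4 and 14.5 in Dex+IL27 (log2 fold change 0.51, adjusted p = 0.052). It missed the threshold and passed in 6 of 17 alternatives. H2-Aa, another MHC class II gene of the list, had 0.0, 0.0612 and 0.0 CPM in Dex and 0.057, 0.3045 and 0.0 in Dex+IL27. Cd14, Flt3 and Fcgr3 had at most 1.30 CPM in these libraries. Lyz2, Emr1 and Siglech were at 0 counts in both groups, and Clec9a was at 0 in Dex. The 6 CD4 T cell markers summed to 354 to 404 CPM in Dex and 256 to 267 in Dex+IL27, mostly from Ctla4. Cd4 itself had 0.617, 0 and 0.249 CPM in Dex and 1.65, 0.244 and 1.84 in Dex+IL27 (log2 fold change 2.09 ± 0.76, adjusted p = 0.047). These levels overlapped. The call of Cd4 was lost without Dex replicate 2, Dex replicate 3, Dex+IL27 replicate 1 or Dex+IL27 replicate 3 (adjusted p = 0.13 to 0.16). It was also lost with library totals, at 2.03 (adjusted p = 0.053), with only the 2 groups compared in the fit, at 2.09 (adjusted p = 0.072), with all 24 libraries, at 2.08 (adjusted p = 0.086), and with limma on unfiltered FPKM. The 7 B cell markers summed to 9.76 to 12.9 CPM and 6.80 to 8.27, with Ms4a1, Pax5 and Blnk at 0 in both groups. The 8 NK cell markers summed to 17.5 to 19.9 CPM and 12.3 to 14.9, mostly from Klri2, with Tyrobp and Fcer1g at 0 in both groups. The 10 erythroid and platelet markers summed to 3.11 to 5.81 CPM and 1.52 to 2.62, with Hba-a2, Pf4 and Ppbp at 0 in both. Of these 5 lists none overlapped between Dex and Dex+IL27 in summed level, and their part in the results above was not tested.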

How the data were processed

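RNA was measured in 24 libraries, of which the 12 of day 9 were fitted. The authors deposited estimated counts and FPKM per gene from RSEM. TopHat, RSEM, DESeq and the mm9 build are named in the submitters' processing notes, with no versions or settings. Counts were rounded and tested with edgeR 4.0.16 (R 4.3.3; TMM scaling, quasi-likelihood F-test, prior count 0.125), in which each group had its own mean and all 12 libraries shared 1 estimate of spread. A minimum count of 10 (filterByExpr) left 12320 of 23366 genes. SE is the absolute log2 fold change divided by the square root of F. Calls use Benjamini-Hochberg adjusted p under 0.05 over all genes tested. The deposited FPKM values were used only with limma 3.58.1 as log2(FPKM + 1) or log2(FPKM + 0.1), and DESeq2 1.42.0 was another alternative. The edgeR steps were tested on simulated data. Named are a fixed set, the 5 members with the lowest p in each list, and list members with a described role. Also named are the 12 largest rises and falls at 10 CPM or more whose libraries did not overlap, and the 8 largest interactions a side. The comparison, lists and tests were chosen with earlier results of these data known. Of 564 list genes, 562 were found and 506 tested. Values of a few genes are not reported here. SMART-Seq2 libraries do not mark strand, so overlapping genes on opposite strands cannot be told apart, and genes with near-identical copies are uncertain.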

Additional observations from a re-analysis of the deposited data

Results flagged for a closer look

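Genes are given here because the change that IL27 made with Dex differed from the change it made without Dex, by edgeR's test of that difference (28.5% of all genes tested passed). Values are the change with Dex minus the change without, on the log2 scale, for fixed genes and the 8 largest differences on each side.

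The difference was negative for 14 genes. For Stac2 it was -4.71 ± 0.52 (adjusted p = 2.3e-05), and the gene rose by 5.99 without Dex and 1.29 with it. Itga7, an integrin chain, had -4.27 ± 1.07 (adjusted p = 0.0085), and without Dex replicate 1 it had -3.21 and without IL27 replicate 1 -3.61. With limma on log2(FPKM + 1) the difference for Itga7 was lost, at -1.02 (adjusted p = 0.17). Kif1a, a kinesin motor, had -3.61 ± 0.93 (adjusted p = 0.0096), with -4.39 without Ctrl replicate 2, -3.02 without Ctrl replicate 3 and -2.68 without IL27 replicate 1. It was lost with limma on log2(FPKM + 1), at -0.27 (adjusted p = 0.55), and on log2(FPKM + 0.1), at -1.53 (adjusted p = 0.096). Enpp2, for the enzyme autotaxin, had -4.05 ± 0.36 (adjusted p = 4.4e-06), with 0.474 CPM in Ctrl, 4.54 in IL27, 19.7 in Dex and 11.2 in Dex+IL27. Tgfb3 had -3.71 ± 0.63 (adjusted p = 0.00070), which was lost with limma on log2(FPKM + 1), at -0.61 (adjusted p = 0.17), and Ecm1, a matrix protein gene, had -3.19 ± 0.27 (adjusted p = 2.3e-06). Il10 had -3.68 and Crispld2 -3.50, as described above. Among the fixed genes, Socs1 had -1.64 ± 0.22 (adjusted p = 0.00011), Tsc22d3 -1.48 ± 0.15 (adjusted p = 9.2e-06), Tcf7 -1.36 ± 0.34 (adjusted p = 0.0077), Socs3 -1.001 ± 0.17 (adjusted p = 0.00056), Rn45s -0.48 ± 0.055 (adjusted p = 3.0e-05) and Lag3 -0.45 ± 0.14 (adjusted p = 0.028). The difference for Lag3 was lost without Ctrl replicate 2, Ctrl replicate 3, Dex replicate 3, Dex+IL27 replicate 1 or Dex+IL27 replicate 2 (adjusted p = 0.061 to 0.086). Socs3 rose without Dex by 0.47 and fell with it, while Tsc22d3 and Lag3 rose in both settings.

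The difference was positive for the other 13. Tigit had 0.67 ± 0.11 (adjusted p = 0.00049), Tbx21 1.00 ± 0.20 (adjusted p = 0.0020) and Prdm1 0.93 ± 0.29 (adjusted p = 0.026). The difference for Prdm1 was lost without Ctrl replicate 2, Ctrl replicate 3, Dex replicate 3, IL27 replicate 3, Dex+IL27 replicate 2 or Dex+IL27 replicate 3 (adjusted p = 0.053 to 0.067). The differences of Prf1 (1.94), Gzmb (0.95) and Ly6c2 (3.58) are described above. Ifng had 2.45 ± 0.66 (adjusted p = 0.012) and the chemokine gene Ccl3 2.45 ± 0.44 (adjusted p = 0.00093), and both fell without Dex, by 2.73 and 2.29. The interferon-stimulated genes Iigp1 and Rtp4 had 2.48 ± 0.68 (adjusted p = 0.014) and 2.58 ± 0.60 (adjusted p = 0.0054). The difference for Iigp1 was lost without Dex+IL27 replicate 1 (adjusted p = 0.050). Without IL27 replicate 1 the value of Iigp1 was 3.11. Ugt1a10 had 3.01 ± 1.06 (adjusted p = 0.046) and Olr1 3.06 ± 1.04 (adjusted p = 0.039), and both were under 1 CPM in Dex and Dex+IL27. The difference for Ugt1a10 missed the threshold with library totals, with all 24 libraries and with the replicate block (adjusted p = 0.052 to 0.064). Without Dex replicate 2 the value of Olr1 was 4.20, without IL27 replicate 3 it was 3.68, and without IL27 replicate 2 that of Ugt1a10 was 3.65. The difference for Ugt1a10 was lost without Ctrl replicate 1, Ctrl replicate 3, Dex replicate 1, Dex replicate 2, Dex replicate 3, IL27 replicate 3, Dex+IL27 replicate 2 or Dex+IL27 replicate 3 (adjusted p = 0.052 to 0.18). The difference for Olr1 was lost without Ctrl replicate 1, Ctrl replicate 3, Dex replicate 1, Dex replicate 3, IL27 replicate 2, Dex+IL27 replicate 1 or Dex+IL27 replicate 3 (adjusted p = 0.052 to 0.15). Gzmd had a fitted value of 10.69 (adjusted p = 0.0057), which depends on the prior count and is no bound, since it had 0 counts in Dex and 13 in Dex+IL27, all in replicate 2. Without that library the value was 5.50, without IL27 replicate 1 it was 12.07 and without Dex+IL27 replicate 1 it was 11.28. The difference for Gzmd was lost without Dex+IL27 replicate 2 (adjusted p = 1.000).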

How the results depend on the processing

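The alternatives run were other scaling, Rn45s left out, no filter on low counts, DESeq2, limma on FPKM and other sets of libraries. The replicate number was also entered as a block. The counts of genes called stayed within 1.5 times their main value under each. For Dex+IL27 against Dex they ranged from 2780 without Dex replicate 2 to 4368 with all 24 libraries. Leaving out 1 library at a time gave 2780 to 3542, for IL27 against Ctrl 6378 to 6904, and for the difference of the 2 changes 2881 to 3571. With a library left out, the remaining pair is assumed to vary like the other groups. Over the alternatives of Dex+IL27 against Dex there were 3489 gene values. Of these 3343 kept their side of the threshold, 128 lost the call and 18 gained it. Among values called in the main fit or in the alternative, 0 reversed direction. Genes called in neither could change sign and were counted among the 3343, such as Ccl3 (0.16 in the main fit and as low as -0.073). For the difference of changes, Maf went from -2.02 (adjusted p = 0.096) to 1.21 with limma on log2(FPKM + 1), with the filter (adjusted p = 0.00084) and 1.21 without it (adjusted p = 0.0024), and the cause was not tested. Same-numbered Dex and Dex+IL27 libraries had correlations of deviations of -0.0046 to 0.15, and over all day 9 groups -0.18 to 0.30. Differently numbered libraries had -0.18 to 0.13 and -0.30 to 0.20. With 3 libraries a group these values cannot show whether the numbers pair the libraries, and the labels do not say. With the replicate block 3882, 7028 and 3443 genes were called in the 3 comparisons. Without a low-count filter, or with limma on unfiltered FPKM, 4053 and 3543 genes passed. Library totals alone gave 34.6% of calls as rises against 46.5%. With limma on unfiltered FPKM, 4 genes of the IL27 receptor list and 7 of MHC class I rose, and 9 of the transcription factors fell. The 3 libraries a group limit what can be called, and genes under 1 CPM in a group have imprecise folds.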

Other observations

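Families that the lists above cover in small part or not at all also moved in these cells. They were picked by their symbols after the values of Dex+IL27 against Dex were seen, so only counts of calls and medians are given. Beside them stand 14.9% of all genes tested that rose and 17.1% that fell. The family values come from the main fit and were not rerun under the alternatives. With library totals the median change of all genes tested was -0.065, against 0.0034 in the main fit. Of 82 genes with symbols of cytosolic ribosomal proteins 30 rose and 4 fell (median log2 change 0.11). The falls included Rpl7l1 and Rps27l, which are relatives of such genes. By contrast, of 76 genes of mitochondrial ribosomal proteins 4 rose and 32 fell (-0.20). Genes of protein synthesis and folding fell in part: 11 of 17 aminoacyl-tRNA synthetases fell and 1 rose (-0.39), and 6 of 9 subunits of the cytosolic chaperonin fell and 0 rose (-0.20). Of 39 proteasome subunits 18 fell and 3 rose (-0.18). Of 36 genes with Nduf symbols, most of them for subunits of respiratory complex I, 14 fell and 1 rose (-0.14). The 3 proteasome rises were Psmb1, Psmb8 and Psmb9. Psmb8, Psmb9 and Psmb10, which did not pass, also stand in the lists of interferon-stimulated genes and of MHC class I.

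Other families rose more often than they fell. Of 17 autophagy-related genes 9 rose and 1 fell (0.29), and of 12 cathepsin genes, which encode lysosomal proteases, 5 rose and 1 fell (0.31). The cathepsins Ctsw, which rose, and Ctsc, which did not pass, also stand in the list of granule genes. Of 8 Gimap genes, GTPases of lymphocyte survival, 5 rose and 0 fell (0.36). Of 7 genes of S100 calcium-binding proteins 5 rose and 0 fell (0.34), and of 4 Ifitm genes, which encode antiviral membrane proteins, 2 rose and 0 fell (0.48). The members of the ribosomal and complex I families have processed copies elsewhere in the genome, among which reads may have been divided.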
